A study of Mus musculus with 2 samples.

Results

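Transcripts of 10 Wnt pathway genes, taken by symbol, were followed in mouse E14.1 embryonic stem cells: the TCF/LEF transcription factors *Tcf7*, *Tcf7l1*, *Tcf7l2* and *Lef1*, the destruction complex genes *Axin1*, *Axin2* and *Apc*, the beta-catenin gene *Ctnnb1*, and the Wnt-responsive genes *Sp5* and *Nkd1*. All 10 were found among the 25740 genes of the series, and the rule that takes them uses their names only, although they were proposed with earlier results of these data known. The study holds 2 RNA-seq libraries, 1 from E14.1 cells with WT AHCY and 1 from E14.1 cells with T136A AHCY. AHCY, adenosylhomocysteinase, clears the by-product of S-adenosylmethionine-dependent methylation, and in T136A a threonine of the enzyme is replaced by alanine. The sources used here do not give how the T136A cells were made, whether they are 1 clone, whether the original enzyme is still present, or whether the medium held a GSK3 inhibitor, which mimics a Wnt signal. With 1 library per genotype no spread between replicates could be measured, so no difference below has a replicate check, and "higher" and "lower" describe these libraries.

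In the canonical Wnt pathway, AXIN and APC hold beta-catenin in a complex in which it is phosphorylated and marked for destruction. A Wnt signal stops this, and beta-catenin then enters the nucleus and binds TCF/LEF proteins on DNA. In embryonic stem cells TCF7L1 acts mainly as a repressor of pluripotency genes, while TCF7 and LEF1 act mainly as activators with beta-catenin. *Axin2*, *Sp5*, *Nkd1*, *Lef1* and *Tcf7* are genes that Wnt signals commonly switch on, and *Axin2* and *Nkd1* encode feedback inhibitors.

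TCF/LEF proteins recognise the letters CTTTG followed by 2 bases that are each A or T. The 250 bases upstream of the first RefSeq start (GRCm38.p6) of 3 Wnt-responsive members are shown, because these are the genes whose transcripts are commonly read as an output of the pathway. Capitals mark every match to these letters on either strand; all 3 windows are read on the plus strand, at chr2:70474673-70474922 for *Sp5*, chr11:108920099-108920348 for *Axin2* and chr3:131110047-131110296 for *Lef1*.
Sp5: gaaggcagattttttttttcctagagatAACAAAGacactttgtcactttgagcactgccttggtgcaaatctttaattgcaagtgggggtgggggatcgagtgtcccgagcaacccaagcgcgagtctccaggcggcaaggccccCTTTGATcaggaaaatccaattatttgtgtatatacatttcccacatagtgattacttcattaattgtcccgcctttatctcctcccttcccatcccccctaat
Axin2: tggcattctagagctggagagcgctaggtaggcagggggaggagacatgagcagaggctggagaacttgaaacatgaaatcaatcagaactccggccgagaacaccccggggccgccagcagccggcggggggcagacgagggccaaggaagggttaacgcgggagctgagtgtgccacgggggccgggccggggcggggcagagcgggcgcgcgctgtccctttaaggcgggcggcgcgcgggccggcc
Lef1: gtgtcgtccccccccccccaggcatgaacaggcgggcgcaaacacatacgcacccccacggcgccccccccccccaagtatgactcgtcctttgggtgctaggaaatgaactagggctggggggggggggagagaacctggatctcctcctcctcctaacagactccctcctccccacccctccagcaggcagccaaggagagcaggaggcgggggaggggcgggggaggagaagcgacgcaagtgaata
The *Sp5* window held 2 matches, which began 222 and 104 bases before the start. The *Axin2* window and this *Lef1* window held 0 matches, which says only that these letters are not in these windows. Of all 32851 RefSeq windows of this length, 14.8% held at least 1 match and 1.43% held 2 or more. Of the 11 other windows listed for these genes, 2 held a match, at a later start of *Lef1* and of *Tcf7l2*.

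The main difference among the 10 genes lay within the TCF/LEF family: *Tcf7* was about 2-fold higher in T136A, *Tcf7l2* 2.38-fold lower, and *Tcf7l1* nearly level. *Ctnnb1* and *Apc* were modestly higher and *Axin1* was level. The Wnt-responsive genes *Axin2*, *Nkd1*, *Sp5* and *Lef1* stayed below 1 RPKM in both libraries. RPKM is the number of reads per kilobase of exon, scaled to the total of the library, so levels of different genes can be set side by side.

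**Figure D1:**
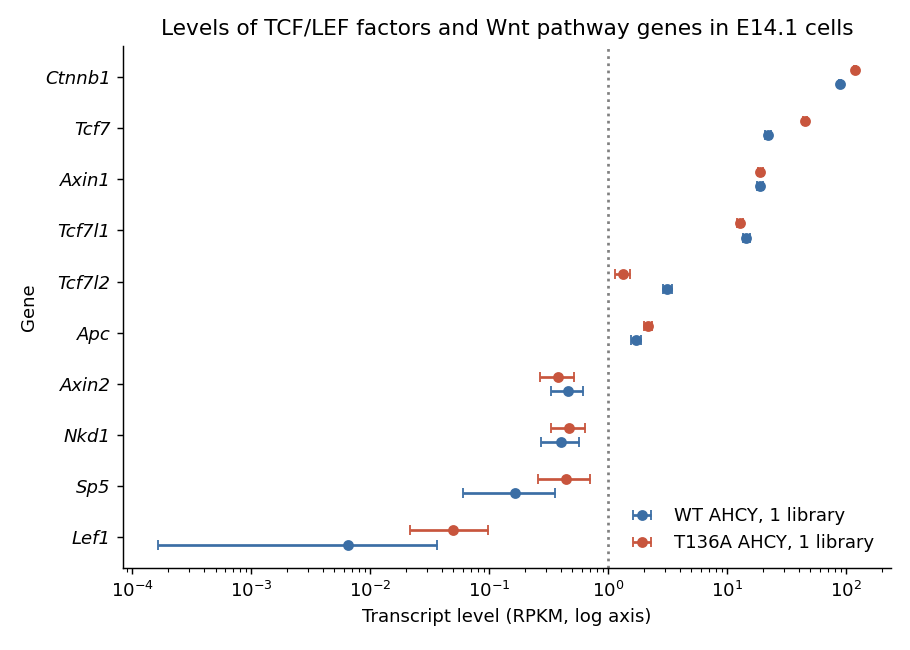
Transcript level of each of the 10 genes (RPKM, log axis) in the WT and the T136A library; points are the 2 libraries, bars are exact Poisson 95% intervals for counting error, and the dotted line marks 1 RPKM. *Tcf7* (22.0 and 45.2 RPKM) and *Tcf7l2* (3.14 and 1.32 RPKM) move in opposite directions, and 4 genes lie left of the line in both libraries.

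*Tcf7* encodes TCF1, the TCF/LEF factor with the highest transcript level in these cells (ENSMUSG00000000782; GRCm38 chromosome 11, 52252371 to 52283014, minus strand). Its level was 22.0 RPKM for WT (1009 reads) and 45.2 RPKM for T136A (2185 reads). T136A was the higher library by 2.06-fold, with a 95% counting interval of 1.91 to 2.22, which covers counting error only and compares the libraries, not the genotypes. On the log2 scale with 1 RPKM added the difference was 1.01, just past the 2-fold line of 1, and 3.03% of the 12320 genes that reached 1 RPKM in at least 1 library had a higher ratio. With 5 RPKM added it was 0.90, inside the line. In bulk RNA a larger share of cells with a transcript and more transcript per cell cannot be told apart.

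*Tcf7l1* encodes TCF3, the family's main repressor in embryonic stem cells (ENSMUSG00000055799; GRCm38 chromosome 6, 72626378 to 72789254, minus strand). It stood at 14.5 RPKM for WT (995 reads) and 12.8 RPKM for T136A (923 reads). WT was the higher library by 1.13-fold (95% counting interval 1.03 to 1.24), a log2 ratio of -0.17. That ratio lay well inside the range from -0.47 to 0.44 that held the central 68% of genes.

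*Tcf7l2* encodes TCF4, which can activate or repress according to its splice form and partners (ENSMUSG00000024985; GRCm38 chromosome 19, 55741820 to 55933654, plus strand). Its level was 3.14 RPKM for WT (481 reads) and 1.32 RPKM for T136A (212 reads). WT was the higher library, by 2.38-fold in plain RPKM (2.02 to 2.82). The log2 ratio with 1 RPKM added was -0.84, since the added constant shrinks differences of weakly expressed genes, and 4.85% of genes had a lower one. With 0.1 RPKM added it was -1.19, past the 2-fold line, and with 5 RPKM added -0.37. Gene-level values do not separate splice forms.

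*Lef1*, the family member that Wnt signals most often induce (ENSMUSG00000027985; GRCm38 chromosome 3, 131110471 to 131224356, plus strand), rested on 1 read in WT and 8 reads in T136A, or 0.0065 and 0.0495 RPKM. The ratio was 7.61 with a 95% counting interval of 1.02 to 338, too wide to give its size. In both libraries *Lef1* was the lowest of the 10 genes. Its exons share 1208 bases with *Gm43352* on the other strand, which has no value here. Because the strand rule is not given, reads in that stretch cannot be assigned to either gene.

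Summed over the 4 factors, TCF/LEF transcripts came to 39.6 RPKM for WT and 59.4 RPKM for T136A. *Tcf7* made up 55.5% of that sum in WT and 76.2% in T136A. The share of *Tcf7l1* was 36.6% in WT and 21.5% in T136A, and that of *Tcf7l2* was 7.94% and 2.22%. *Lef1* contributed 0.0164% and 0.0833%. Ratios between genes within a library do not depend on how the libraries are scaled. *Tcf7* stood at 1.52 times *Tcf7l1* in WT and 3.54 times in T136A, so that this ratio was 2.33 times as large in T136A (95% counting interval 2.07 to 2.63). *Tcf7* stood at 6.98 times *Tcf7l2* in WT and 34.3 times in T136A, a 4.91-fold difference between the libraries (4.10 to 5.90). The ratio of *Tcf7l1* to *Tcf7l2* was 4.61 in WT and 9.70 in T136A. The family's makeup therefore differed by more than counting error, with no measure of how much it varies between cultures of 1 genotype.

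**Figure D2:**
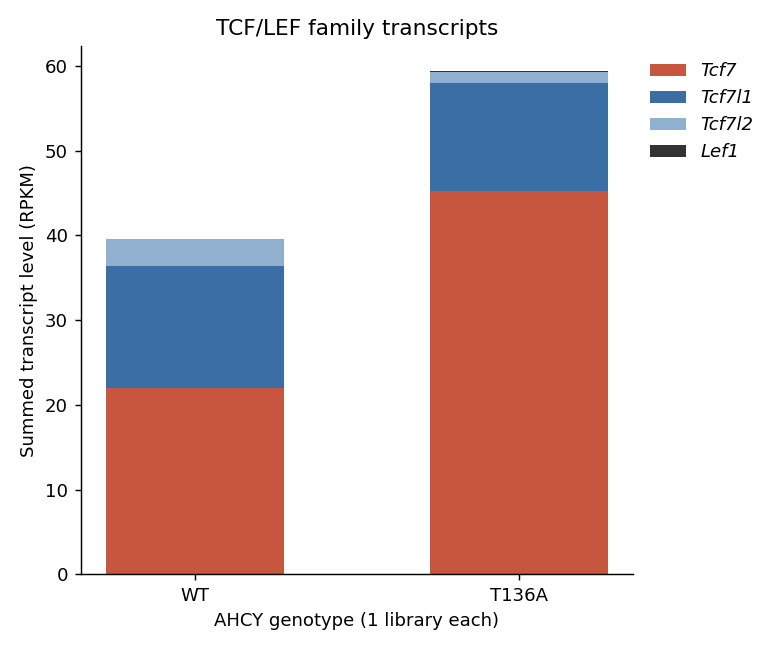
Summed RPKM of the TCF/LEF family in each library (1 per genotype), stacked by gene; bars start at 0. *Tcf7* fills 55.5% of the WT bar and 76.2% of the T136A bar, the *Tcf7l1* block is 14.5 RPKM tall in WT and 12.8 RPKM in T136A, and *Lef1* is too low to see.

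*Ctnnb1*, which encodes beta-catenin, had the highest level of the 10 genes in both libraries (ENSMUSG00000006932; GRCm38 chromosome 9, 120929216 to 120960507, plus strand). It was at 88.0 RPKM for WT (8002 reads) and 118 RPKM for T136A (11245 reads). T136A was the higher library by 1.34-fold (1.30 to 1.38), a log2 ratio of 0.42, and 17.0% of genes had a higher one. Its exons share 759 bases with *Ulk4* on the other strand, and *Ulk4* was at 0.477 and 0.422 RPKM. Beta-catenin is controlled mainly through the stability of the protein, which transcript levels do not show.

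The scaffold genes of the destruction complex differed in level more than in ratio. *Axin1*, the constitutive scaffold (ENSMUSG00000024182; GRCm38 chromosome 17, 26138688 to 26195811, plus strand), was at 18.8 RPKM for WT (1257 reads) and 19.0 RPKM for T136A (1337 reads). Its ratio of T136A to WT was 1.01, and the counting interval of 0.936 to 1.09 included 1. *Apc*, which encodes the large scaffold that binds AXIN and beta-catenin (ENSMUSG00000005871; GRCm38 chromosome 18, 34220924 to 34322552, plus strand), was at 1.71 RPKM for WT (471 reads) and 2.16 RPKM for T136A (626 reads). T136A was higher by 1.26-fold (1.12 to 1.43), with a log2 ratio of 0.22. *Ctnnb1* and *Apc* differed in similar proportion: *Ctnnb1* stood at 51.5 times *Apc* in WT and 54.5 times in T136A, and the interval of the change in that ratio, 0.933 to 1.20, included 1. Against *Axin1*, *Ctnnb1* stood at 4.69 times in WT and 6.20 times in T136A, a ratio 1.32 times as large in T136A (1.22 to 1.44).

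*Axin2*, the Wnt-induced copy of the AXIN scaffold and a common readout of the pathway (ENSMUSG00000000142; GRCm38 chromosome 11, 108920349 to 108950783, plus strand), was at 0.456 RPKM for WT (44 reads) and 0.375 RPKM for T136A (38 reads). The ratio of T136A to WT was 0.822, and its interval of 0.518 to 1.30 included 1. *Axin1* exceeded *Axin2* 41.1-fold in WT and 50.6-fold in T136A. A difference in *Axin2* was not detectable at this depth.

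*Nkd1*, which encodes the feedback inhibitor Naked cuticle (ENSMUSG00000031661; GRCm38 chromosome 8, 88521354 to 88594884, plus strand), was at 0.401 RPKM for WT (32 reads) and 0.465 RPKM for T136A (39 reads). Its ratio of 1.16 had an interval of 0.708 to 1.91, which also included 1. *Sp5*, which encodes a zinc finger repressor induced by Wnt and whose upstream window held both motif matches, rested on 6 reads in WT and 17 in T136A (ENSMUSG00000075304; GRCm38 chromosome 2, 70474923 to 70477729, plus strand). The levels were 0.163 and 0.44 RPKM. The ratio was 2.70 with an interval of 1.01 to 8.35, whose lower end lies next to 1. Among the 5 Wnt-responsive genes, *Tcf7* was thus higher in T136A on many reads, *Sp5* and *Lef1* were higher on very few, and the intervals of *Nkd1* and *Axin2* ran on both sides of 1.

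**Figure D3:**
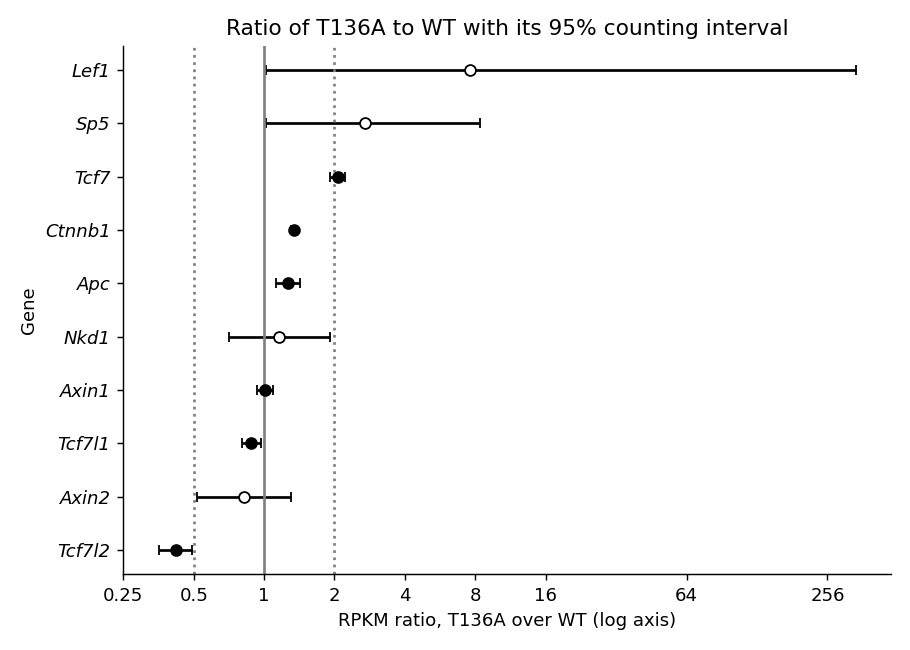
Ratio of T136A to WT RPKM for the 10 genes (log axis), with exact 95% counting intervals from recovered reads; filled points reach 1 RPKM in at least 1 library, open points do not, and dotted lines mark 2-fold. *Tcf7* (2.06) and *Tcf7l2* (0.419) lie near the 2-fold lines with narrow intervals, while the interval of *Lef1* runs from 1.02 to 338.

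By level, the order in WT was *Ctnnb1*, *Tcf7*, *Axin1*, *Tcf7l1*, *Tcf7l2*, *Apc*, *Axin2*, *Nkd1*, *Sp5* and *Lef1*. In T136A *Apc* stood above *Tcf7l2*, and *Nkd1* and *Sp5* stood above *Axin2*. Neighbours whose 95% Poisson intervals overlapped were *Axin2* and *Nkd1*, and *Nkd1* and *Sp5*, in WT, and *Nkd1* and *Sp5*, and *Sp5* and *Axin2*, in T136A. The order among *Axin2*, *Nkd1* and *Sp5* therefore did not differ beyond counting error between neighbours, while the switch of *Apc* and *Tcf7l2* lay outside it.

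Of the 10 genes, 6 reached 1 RPKM in at least 1 library. One of them, *Tcf7*, was at least 2-fold higher in T136A on the log2 scale with 1 RPKM added, against a background of 3.13% of the 12320 genes, and 0 were at least 2-fold lower, against 3.1%. Among these 6, the counting interval lay above 1 for *Tcf7*, *Ctnnb1* and *Apc* and below 1 for *Tcf7l1* and *Tcf7l2*. Over the 10784 genes that reached 1 RPKM and had recovered reads, 31.7% had an interval above 1 and 36.9% one below 1, so an interval that excludes 1 was common at this depth. The median log2 ratio was 0.12 over these 6 genes, 0.06 over all 10, and -0.03 over the 12320 genes. The chromosomes that carry the 10 genes had median log2 ratios between -0.10 and 0.00355, chromosome 11 with *Tcf7* at -0.01 and chromosome 19 with *Tcf7l2* at -0.08.

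The other genes of the pathway were read from 9 lists by role, which also cover junction partners of beta-catenin and pluripotency-associated genes described as held down by TCF7L1. Of 138 listed genes 135 were analysed, and 85 of them reached 1 RPKM. Counts past 2-fold in these lists use the log2 scale with 1 RPKM added. Those at least 2-fold higher numbered 3 (*Wnt6*, *Bmp4* and *Myc*) and those at least 2-fold lower 2 (*Fzd7* and *Cdh1*), which is 3.53% and 2.35%, close to the background shares above. Their median log2 ratio was -0.12, with 35 genes above 0 and 50 below. Of all 12320 genes, 47.4% were above 0. The 85 genes include 9 of the pluripotency-associated list, of which 7 were below 0.

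**Figure D4:**
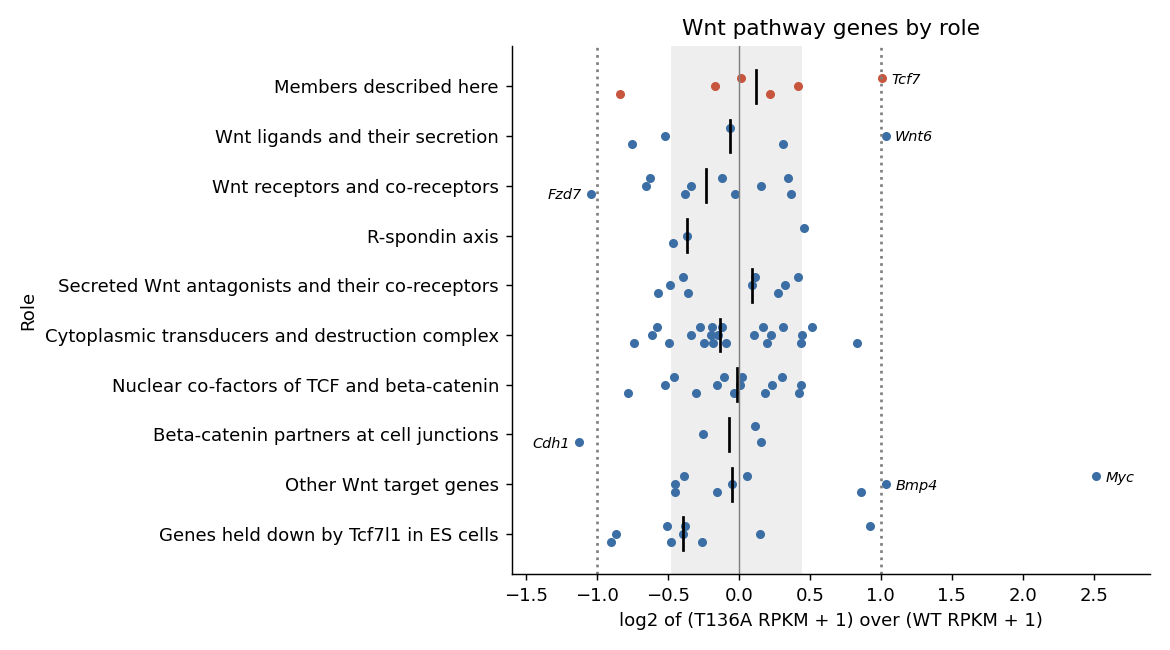
Log2 of the T136A to WT ratio, with 1 RPKM added to both values, for Wnt pathway genes that reached 1 RPKM, 1 point per gene, by role, with the 6 genes described above in red in the top row; black bars are medians, the grey band holds the central 68% of all 12320 genes, and dotted lines mark 2-fold. *Tcf7*, *Wnt6*, *Bmp4* and *Myc* lie past the upper line, *Fzd7* and *Cdh1* past the lower.

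Of the Wnt ligands and their secretion factors, 5 of 20 analysed reached 1 RPKM, and 1 of them was at least 2-fold higher and 0 lower. Over all 12320 genes the shares were 3.13% and 3.1%. *Wnt6* was at 2.76 RPKM for WT and 6.72 RPKM for T136A. *Wls*, the carrier that brings Wnt proteins to the cell surface, was at 2.11 and 0.841 RPKM, and *Wnt7b* at 2.86 and 1.69 RPKM. *Porcn*, the acyltransferase that Wnt proteins need for secretion, was nearly level at 3.67 and 3.48 RPKM.

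Among receptors, 10 of 15 reached 1 RPKM, with 0 at least 2-fold higher and 1 lower, beside 3.13% and 3.1% of all 12320 genes. The Frizzled receptor *Fzd7*, a main Wnt receptor of embryonic stem cells, was at 21.3 RPKM for WT and 9.82 RPKM for T136A, 2.17-fold lower (1.99 to 2.36). *Fzd9* (4.83 and 2.70 RPKM) and *Fzd2* (3.31 and 1.8 RPKM) had the next lowest log2 ratios among these 10. *Fzd5* was at 20.1 and 26.3 RPKM, and the co-receptor *Lrp6* at 3.24 and 4.39 RPKM. *Fzd7* and *Fzd5*, the Frizzled genes with the highest levels, were thus at similar levels in WT, where their 95% Poisson intervals overlapped, and apart in T136A. Of the R-spondin axis, which controls the removal of Frizzled receptors, *Lgr4* was at 2.88 and 4.35 RPKM, *Znrf3* at 2.29 and 1.55 RPKM, and *Rspo4* at 1.23 and 0.619 RPKM. None of these 3, the ones that reached 1 RPKM, passed the 2-fold line.

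Secreted antagonists and their co-receptors had 0 of 9 genes past the 2-fold line in either direction. *Sfrp1*, which binds Wnt proteins outside the cell, was the most abundant, at 25.8 RPKM for WT and 17.1 RPKM for T136A, and *Dkk3* was at 6.68 and 4.50 RPKM. *Notum*, the enzyme that inactivates Wnt proteins and is itself a Wnt target, was at 0.593 and 1.13 RPKM.

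Of 22 cytoplasmic transducers and destruction complex genes, 0 were past the 2-fold line. *Tnks*, tankyrase, which marks AXIN for degradation, was at 5.79 and 3.07 RPKM. The beta-catenin priming kinase *Csnk1a1* was at 56.7 and 36.8 RPKM, and *Dvl2*, which relays the receptor signal, at 37.8 and 24.99 RPKM. *Frat1*, a GSK3-binding protein that favours beta-catenin, was at 1.11 and 2.77 RPKM. In plain RPKM *Frat1* was 2.48-fold higher in T136A (1.78 to 3.50), which the added 1 RPKM brought inside the line. Among 14 nuclear co-factors 0 passed as well. *Tle3*, a Groucho co-repressor that TCF proteins recruit, was at 18.8 and 10.5 RPKM, and the co-activator *Ep300* at 6.37 and 4.15 RPKM. *Ctnnbip1*, which keeps beta-catenin from TCF, was at 4.26 and 6.13 RPKM.

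E-cadherin, *Cdh1*, which binds beta-catenin at cell junctions, was at 80.3 RPKM for WT and 36.2 RPKM for T136A, 2.22-fold lower (2.12 to 2.32). Its partner *Ctnna1* was at 197 and 165 RPKM and plakoglobin, *Jup*, at 17.8 and 19.9 RPKM. Of 4 junction genes that reached 1 RPKM, *Cdh1* was the only one past the 2-fold line. Over all 12320 genes 3.1% were at least 2-fold lower.

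Among 9 other Wnt target genes at 1 RPKM or more, 2 were at least 2-fold higher and 0 lower. Over all 12320 genes 3.13% were at least 2-fold higher and 3.1% lower. The median log2 ratio of these 9 targets was -0.05, with 4 above 0 and 5 below. *Myc* was at 2.27 and 17.7 RPKM. *Bmp4*, at 3.80 and 8.87 RPKM, lies on chromosome 14, whose 453 genes had a median log2 ratio of 0.32. *Dusp6* had the next ratio (5.62 and 11.0 RPKM); *Myc* and *Dusp6* also answer to ERK signalling. *Id2* (8.18 and 5.71 RPKM), *Mixl1* (1.17 and 0.592 RPKM) and *Mycn* (78.3 and 59.6 RPKM) had the lowest ratios.

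Of 9 pluripotency-associated genes that TCF7L1 has been described to hold down in embryonic stem cells, 0 passed the 2-fold line, 7 had a log2 ratio below 0 and 2 above, and their median was -0.39, beside 47.4% above 0 and a median of -0.03 over all 12320 genes. *Klf2* was at 156 RPKM for WT and 82.9 RPKM for T136A, *Nr5a2* at 22.8 and 12.1 RPKM, and *Nr0b1* at 44.5 and 31.0 RPKM. *Tcl1* stood opposite, at 12.8 and 25.3 RPKM. *Tcf7l1* itself had a log2 ratio of -0.17, as given above.

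Markers of embryonic stem cells were present in both libraries, with 10 of 10 at 1 RPKM or more and a median log2 ratio of -0.18. Single markers went both ways: *Utf1* was at 94.2 RPKM for WT and 284 for T136A, and *Sall4* at 65.1 and 38.7 RPKM. Of 7 fibroblast feeder markers analysed, 2 reached 1 RPKM, *Thy1* (2.5 and 5.32 RPKM) and *Pdgfrb* (1.43 and 1.97 RPKM). The 7 summed to 4.58 and 8.15 RPKM, mostly through *Thy1*, while the collagens *Col1a1* (0.470 and 0.530 RPKM) and *Col1a2* (0.0368 and 0.0525 RPKM) were low in both, and the list's median log2 ratio was 0.06. Primitive and definitive endoderm markers summed to 4.40 and 8.02 RPKM, with 4 of 8 at 1 RPKM and a median of 0.26, and mesoderm markers to 2.42 and 2.71 RPKM, with 1 of 9. Of 7 neuroectoderm markers 3 reached 1 RPKM: *Sox1* was at 7.77 and 1.55 RPKM, *Nes* at 1.18 and 1.91 RPKM and *Tubb3* at 23.8 and 22.5 RPKM. *Pax6* and *Zic1* were listed at 0 in both. *Tcf7* was higher in the library in which *Thy1*, the endoderm markers and the embryonic stem cell marker *Utf1* were higher. With only 2 libraries, every gene higher in T136A coincides in this way. Neuroectoderm markers did not move together, with *Sox1* lower in T136A, *Nes* higher and *Tubb3* nearly level. The part of these marker differences in that of *Tcf7* was not tested. *Ahcy* was at 52.9 and 56.6 RPKM, and gene-level values do not show the altered codon.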

How the data were processed

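The authors deposited 1 value per Ensembl gene for each of 2 libraries, read here as RPKM from the values, since no source used here names the unit. CASAVA 1.8 and mm9 appear, with no role, per the submitters' processing notes; the aligner, counting program, annotation and strand rule: not given in the sources used here. RNA came through Trizol and an Illumina TruSeq RNA kit, per the labels' protocols. Each value times the GENCODE M21 (GRCm38) union exon length and 1 constant per library gave a whole number, within 0.01, for 89.9% of positive WT values and 90.0% of T136A values. The constants imply a depth of 17506154 reads for WT and 18396840 for T136A. For *Tcf7l2* and *Apc* the annotated length gave no whole number; the single length within 25% of it that gave whole reads in both libraries, within 0.0005, was used (8739 and 15753 bases). Coordinates are those of GRCm38, not mm9.

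Symbols came from the reference's gene table, which matched 25696 of 25749 identifiers. Libraries were compared by the log2 ratio of T136A to WT after adding 1 RPKM to both values, for genes at 1 RPKM or more in at least 1 library. Folds are plain RPKM ratios with exact conditional binomial (Clopper-Pearson) intervals, and changes of within-library ratios have exact conditional odds ratio intervals (scipy 1.17.1); both cover counting error only, and reads are not independent molecules. The steps were tested on simulated Poisson reads with known folds. That simulation held no variation between cultures, so it cannot show how the intervals would fare with it. The members and lists were chosen with earlier results of these data known. Named genes are the 10 members, up to 3 at each end of every other pathway list, and every pathway gene past 2-fold. The cell type markers named, *Ulk4* and *Ahcy* were picked outside this rule, with their values known. *Gm43352*, which has no value, was named for its overlap with *Lef1*. No gene was named for a pattern like that of a member, because 2 libraries give no pattern. Pseudocounts, minimum levels and scalings were varied. Listed genes that were not found were not analysed here.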

Additional observations from a re-analysis of the deposited data

How the results depend on the processing

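Among 8 alternatives, those run on single genes were added constants of 0.1 and 5 and 4 scalings. None of the 10 genes' log2 ratios changed sign in them, but an added constant cannot change a sign. The median, upper quartile and TMM scalings divided T136A by 0.974, 0.963 and 0.981, which could only raise a ratio. Of 60 such values 54 stayed inside their counting interval, which is wide for genes with few reads. *Lef1* counts as inside although it moved from 0.06 to 0.49 with 0.1 added. The ratio of *Tcf7* ran from 0.90 to 1.06, that of *Tcf7l2* from -1.19 to -0.37, that of *Ctnnb1* from 0.39 to 0.47 and that of *Sp5* from 0.08 to 1.04. With 5 RPKM added, 0 of the members were at least 2-fold higher, and with 0.1 added 1, *Tcf7l2*, was at least 2-fold lower. Of the other pathway genes, 1 was higher and 1 lower with 5 added, and 1 was lower with upper quartile scaling. These constants shrink or widen the ratios of weakly expressed genes by construction; over all genes they gave 101 higher and 114 lower with 5 added, and 723 and 727 with 0.1 added. With a minimum of 5 RPKM, 209 of 7603 genes were higher, and the members' median was 0.22, the highest of its alternatives; the lowest was 0.05 with 5 added. Depth limits *Lef1*, *Sp5*, *Nkd1* and *Axin2*, which rest on 1 to 44 reads. No paired analysis was possible because each genotype has 1 library.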
